A study of Mus musculus with 16 samples.

Results

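Wild-type (WT) mouse hearts, 4 from females and 4 from males, were compared across autosomal genes. They were 8 of the 16 hearts sequenced, and were taken by the genotype and sex in the labels. All mice were of strain C57BL/6 and had received no treatment. The ages were not given in the sources used here. The other 8 hearts, again 4 per sex, carried TGSUR2A-55, a transgene that raises the short form of the sulfonylurea receptor, a regulatory subunit of ATP-sensitive potassium channels, in the heart only. The sequence that drives the transgene and the number of founder lines were not given in the sources used here. The transgenic (TG) hearts served as another set in which to read the same sex contrast, since the WT and TG contrasts compare different libraries, although both were fitted together and share 1 estimate of the spread. Of 15060 genes with enough counts to test, 14522 were autosomal and form the subject of this account. The 485 tested X-linked and 6 tested Y-linked genes were left out.

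The adult heart burns mainly fatty acids, which enter mitochondria as acylcarnitines and are cut down to acetyl-CoA by beta-oxidation. Its stroma is made largely by fibroblasts, which lay down collagen fibrils, the proteoglycans that space those fibrils, and matricellular proteins that signal between matrix and cells. Resident macrophages and other immune cells present antigen on MHC class II and make or bind complement. Sex hormones, the sexually dimorphic rhythm of growth hormone secretion and glucocorticoids act on muscle cells, stroma and immune cells alike.

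Total counts of the 8 WT libraries ran from 30672505 to 39470909. Xist, the RNA of the inactive X chromosome, stood at 263 to 381 CPM (read counts scaled to a common library size) in WT females and at most 0.399 in WT males, and the Y-linked Ddx3y at 64.1 to 98.6 CPM in WT males and at most 0.12 in WT females. In TG hearts female 4 carried 0.441 CPM of Xist and no Ddx3y counts, unlike the other TG females with 248 to 284 CPM of Xist, so it goes against its label on Xist and is named where it matters. Abcc9, the gene that encodes the sulfonylurea receptor, had 371 to 546 CPM in WT hearts and 5530 to 7350 in TG hearts. Mitochondrially encoded mRNAs took 25.6% ± 0.638 (SD, n = 4) of counts in WT females and 27.0% ± 1.85 in WT males, and the 20 most abundant genes 43.3% ± 0.719 and 44.8% ± 2.0. For the mitochondrial share, the share of the top genes and the total, a two-sided exact permutation test passed no threshold (p = 0.171, 0.2 and 0.229, each 0.229 after adjustment over 3 measures, with 0.0286 the smallest p that 4 against 4 allows). WT male 1 stood apart with 29.8% mitochondrial mRNA, against 25.9% to 26.5% in the other WT males. Sample titles carry running numbers, whose meaning is not stated. The numbers fall into several blocks, which were joined here into an earlier and a later series. The earlier series held WT female 1 and WT males 1, 2 and 3. The later series held WT females 2, 3 and 4 and WT male 4, so that series and sex partly coincide. WT female 3 and WT female 4 were each the only library of their block. For these hearts block and sex cannot be told apart. In the later series only WT female 2 shared a block with WT male 4. The ventricular markers Myh6, Tnnt2 and Myl2 were abundant in every heart, with Myh6 at 15600 to 23000 CPM in WT hearts. The labels do not say whether each library came from a separate animal, so p-values measure only the spread between these libraries, which may be technical.

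Between WT females and WT males 18 autosomal genes passed a false discovery rate (FDR) of 0.05 in edgeR's quasi-likelihood test, which is 0.124% of those tested. They are called genes below. Of these, 8 were higher in females (0.0551% of genes tested) and 10 were lower in females (0.0689%). The higher group held the fibroblast matrix genes Col14a1, Lum, Smoc2 and Fndc1 together with Fgl2, Socs2, Slc38a1 and Pirt. The lower group held C7, Penk, Acsm5, Hsd11b1, Ogdhl, Retnla, Cnmd, Lvrn, Nkain1 and Serpina3c. Folds ran from 1.40 for Smoc2 to 6.17 for Cnmd, and the genes lower in females had the larger folds: 7 of 10 differed by at least 2-fold against 1 of 8 among those higher in females. These 7 were also lower in level, with a mean log2 CPM of -0.94 to 3.37, against 3.84 to 6.40 for the 8 higher in females. Genes with few counts pass the threshold only with large folds, and the part of level in this contrast was not tested. Without adjustment, 802 genes (5.52%) had a p under 0.05, 412 of them higher and 390 lower in females, and the per-heart values of the groups did not overlap for 447 (3.08%). Across all autosomal genes 6840 had a positive and 7682 a negative log2 fold change, female against male, with a median of -0.00894.

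The number of calls moved with the tool and with single libraries: the DESeq2 Wald test called 56 and limma-voom 53, each with all 18, a term for the mitochondrial share of counts gave 734 (75 higher and 659 lower) with all 18, and the count was 33 without WT male 1 and 11 without WT male 3. In each of the 8 fits that left out 1 WT library 11 of the genes were called, and the other 7 (Fgl2, Fndc1, Nkain1, Retnla, Slc38a1, Smoc2 and Socs2) dropped below the threshold in at least 1. A fit on the 8 WT libraries alone called 18 genes, 14 of them among the 18 above, without Fndc1, Nkain1, Retnla and Smoc2. With library size as the only scaling, 12 genes were called higher and 8 lower. For each of the 18 genes the earlier-series female lay outside the range of the 3 earlier-series males, in the direction of the pooled difference. The later-series male likewise lay outside the range of the 3 later-series females. Both follow from the WT groups not overlapping for any of the 18, so they are not a separate test of the series. Fits within a series, which have 1 heart in one of the sexes, called 1 gene in the earlier (none of the 18) and 3 in the later series (C7 and Hsd11b1 among them). With the series as a term 14 genes were called, 12 of them from the 18. This term separates only the earlier from the later series. It cannot adjust for the number blocks of WT female 3 and WT female 4, which held no other library.

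**Figure D1:**
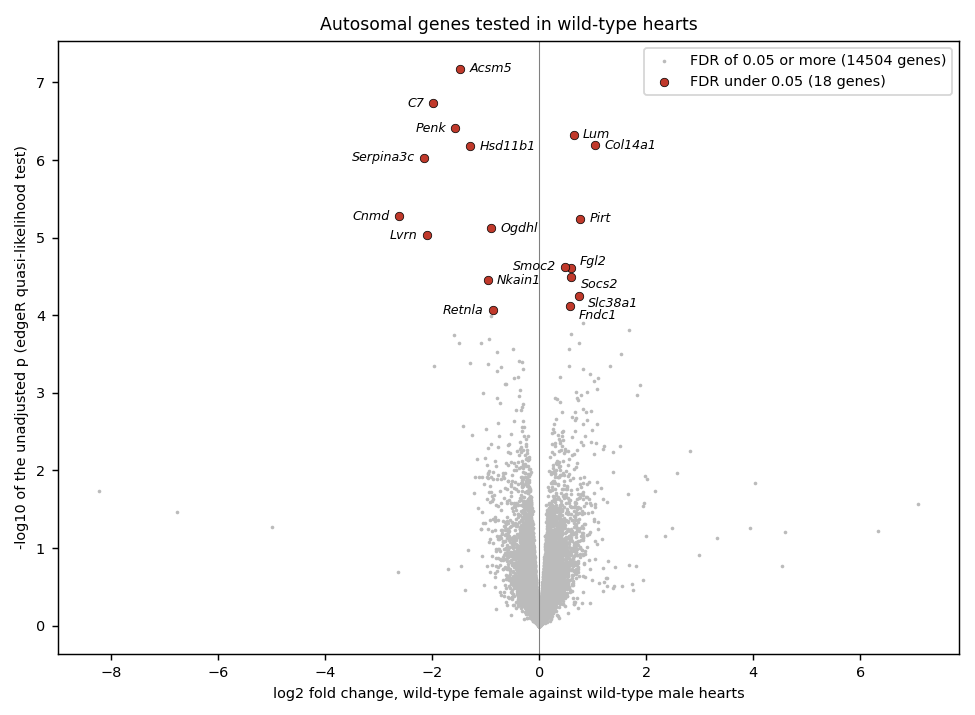
Each point is 1 of the autosomal genes tested, with the log2 fold change of WT female against WT male hearts on the x axis and -log10 of the unadjusted p on the y axis. The 18 called genes are in red, with 8 to the right of 0 and 10 to the left, and Cnmd (-2.62) is the farthest from 0 among them.

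Col14a1 (chr15:55307750-55520803), which encodes a collagen that coats the surface of collagen fibrils, stood at 21.3, 19.0, 28.1 and 29.4 CPM in WT females 1 to 4 and at 12.9, 12.2, 11.7 and 10.53 CPM in WT males 1 to 4. Every female heart exceeded every male heart. The log2 fold change was 1.05 ± 0.14 (SE), a 2.07-fold difference with an adjusted p of 0.000826. Lum (chr10:97565128-97572703) encodes lumican, a small leucine-rich proteoglycan that binds and spaces collagen fibrils. It stood at 89.3, 95.8, 87.6 and 92.6 CPM in females and at 63.4, 66.0, 49.4 and 54.8 CPM in males. The female values were tightly grouped and all above the male ones, with a log2 fold change of 0.65 ± 0.08 and an adjusted p of 0.000785. Per kilobase of exon Lum was the most abundant of the 18 in females, at 37.3 CPM per kilobase, while in males it stood at 23.9, below Ogdhl at 30.1.

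Smoc2 (chr17:14279506-14404790), a calcium-binding matricellular protein of fibroblasts, stood at 95.2, 90.0, 91.6 and 109 CPM in females and at 68.2, 73.7, 62.9 and 71.4 CPM in males. This was the smallest of the called differences, with a log2 fold change of 0.48 ± 0.08 and an adjusted p of 0.0178, and the groups did not overlap. Fndc1 (chr17:7738569-7827302), a fibronectin type III domain protein, stood at 21.99, 18.4, 23.9 and 27.8 CPM in females and at 13.6, 15.5, 16.3 and 16.9 CPM in males. Its lowest female exceeded its highest male, and the log2 fold change was 0.56 ± 0.11 with an adjusted p of 0.0440, near the threshold.

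Penk (chr4:4133531-4138819) encodes proenkephalin, the precursor of the enkephalin opioid peptides. It stood at 1.30, 2.25, 1.66 and 1.80 CPM in females and at 4.46, 6.62, 4.42 and 5.30 CPM in males. Every male heart exceeded every female heart, and the log2 fold change was -1.57 ± 0.20 with an adjusted p of 0.000732. Cnmd (chr14:79637690-79662170), chondromodulin, a glycoprotein of cartilage and heart valves that inhibits vessel growth, had 5, 4, 3 and 7 counts in females and 26, 38, 26 and 34 in males. That is 0.0776 to 0.210 CPM against 0.742 to 1.18 CPM, with a log2 fold change of -2.62 ± 0.41 and an adjusted p of 0.00569. The fold of this gene rests on 19 counts over the 4 female libraries.

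Serpina3c (chr12:104146382-104153870), one of a cluster of closely related mouse serine protease inhibitors, had 7, 6, 4 and 6 counts in females and 29, 19, 33 and 27 in males. All females were below all males, and the log2 fold change was -2.15 ± 0.29 with an adjusted p of 0.00108. RSEM shares reads among similar sequences, so the split of reads within this cluster is uncertain. Lvrn, which encodes the membrane aminopeptidase laeverin, had 9, 11, 25 and 12 counts in females and 48, 72, 71 and 60 in males. Its log2 fold change was -2.10 ± 0.34 with an adjusted p of 0.00735, and WT female 3 was the highest of the females.

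Acsm5 (chr7:119519463-119545551) encodes a mitochondrial enzyme that joins medium-chain fatty acids to coenzyme A. It stood at 2.32, 1.65, 2.82 and 2.68 CPM in females and at 6.41, 5.97, 6.16 and 7.92 CPM in males. This gene had the smallest p of the comparison: females were 2.78-fold lower, with a log2 fold change of -1.48 ± 0.17 and an adjusted p of 0.000166. Ogdhl (chr14:32322019-32348151) encodes a paralog of the E1 subunit of 2-oxoglutarate dehydrogenase, the citric acid cycle enzyme. It stood at 72.9, 71.3, 68.8 and 55.8 CPM in females and at 95.4, 121, 146 and 137 CPM in males. The groups did not overlap, with WT male 1 the lowest male, and the log2 fold change was -0.90 ± 0.14 with an adjusted p of 0.00675. The parent enzyme's gene Ogdh had a log2 fold change of -0.19 ± 0.07 and an adjusted p of 0.727.

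Hsd11b1 (chr1:193221634-193264075) encodes the reductase that regenerates active glucocorticoid from its inactive keto form inside cells. It stood at 5.76, 6.08, 4.68 and 6.08 CPM in females and at 11.96, 15.2, 10.7 and 17.2 CPM in males. Every male exceeded every female, and the log2 fold change was -1.29 ± 0.17, a 2.44-fold difference with an adjusted p of 0.000826. Socs2 (chr10:95385362-95417180), which restrains signalling by the growth hormone receptor, stood at 35.7, 38.9, 30.1 and 33.1 CPM in females and at 22.8, 20.2, 22.4 and 25.4 CPM in males. Females were higher in each pairing of a female with a male heart, with a log2 fold change of 0.60 ± 0.11 and an adjusted p of 0.0218. Slc38a1 (chr15:96571418-96642913), a sodium-coupled transporter of glutamine and other neutral amino acids, stood at 15.97 to 21.4 CPM in females and at 9.53 to 12.7 CPM in males, with a log2 fold change of 0.74 ± 0.14 and an adjusted p of 0.0337.

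C7 (chr15:4988762-5063740) encodes the complement component that anchors the growing membrane attack complex to a target membrane. It stood at 2.42, 2.58, 2.98 and 3.64 CPM in females and at 9.33, 13.1, 11.0 and 12.5 CPM in males. The gap between the groups was wider than the spread within either, and females were 3.95-fold lower, with a log2 fold change of -1.98 ± 0.23 and an adjusted p of 0.000399. Retnla (chr16:48842551-48844461), a secreted resistin-like protein known as a marker of alternatively activated macrophages, stood at 2.26, 1.26, 1.53 and 2.04 CPM in females and at 3.47, 2.78, 3.51 and 3.20 CPM in males. Its adjusted p of 0.0480 was the closest to the threshold of the 18, and it was called in 5 of 22 other settings. Fgl2 (chr5:21372642-21378374), a fibrinogen-like protein with prothrombinase and immune-regulatory forms, stood at 43.0, 51.6, 50.02 and 43.5 CPM in females and at 35.3, 33.2, 27.2 and 29.5 CPM in males. The female hearts were all higher, with a log2 fold change of 0.59 ± 0.10 and an adjusted p of 0.0178.

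The other called genes are best known from nerve cells. Pirt (chr11:66911981-66929876), a membrane protein that regulates TRP channels in sensory neurons, stood at 21.5, 18.3, 14.1 and 17.5 CPM in females and at 9.61, 10.4, 10.6 and 11.2 CPM in males, with a log2 fold change of 0.77 ± 0.12 and an adjusted p of 0.00569. Nkain1 (chr4:130531602-130574173), a protein that interacts with the sodium pump, stood at 1.26 to 1.95 CPM in females and at 2.63 to 3.77 CPM in males, with a log2 fold change of -0.96 ± 0.17 and an adjusted p of 0.0230. Groups did not overlap for either gene. Schwann cell markers, of which 5 were tested, summed to 7.61 to 11.5 CPM in WT females and 8.09 to 12.1 in WT males. The first genes outside the threshold were Dpep1, a dipeptidase of fibroblasts (log2 fold change -0.91, adjusted p = 0.0546), and Frem2, a basement membrane protein (0.82, adjusted p = 0.0609).

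Positions are those of GENCODE vM21 on GRCm38, and every called gene is protein coding. Of the called genes 7 overlap an annotated gene on the other strand. The overlapping gene had more than 1 CPM for Fgl2, where Ccdc146 had a mean of 3.03 CPM, and for Hsd11b1, where Lamb3 had a mean of 8.86 CPM. The strand setting of the counting was not given in the sources used here, so reads of these overlapping pairs may not have been told apart.

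**Figure D2:**
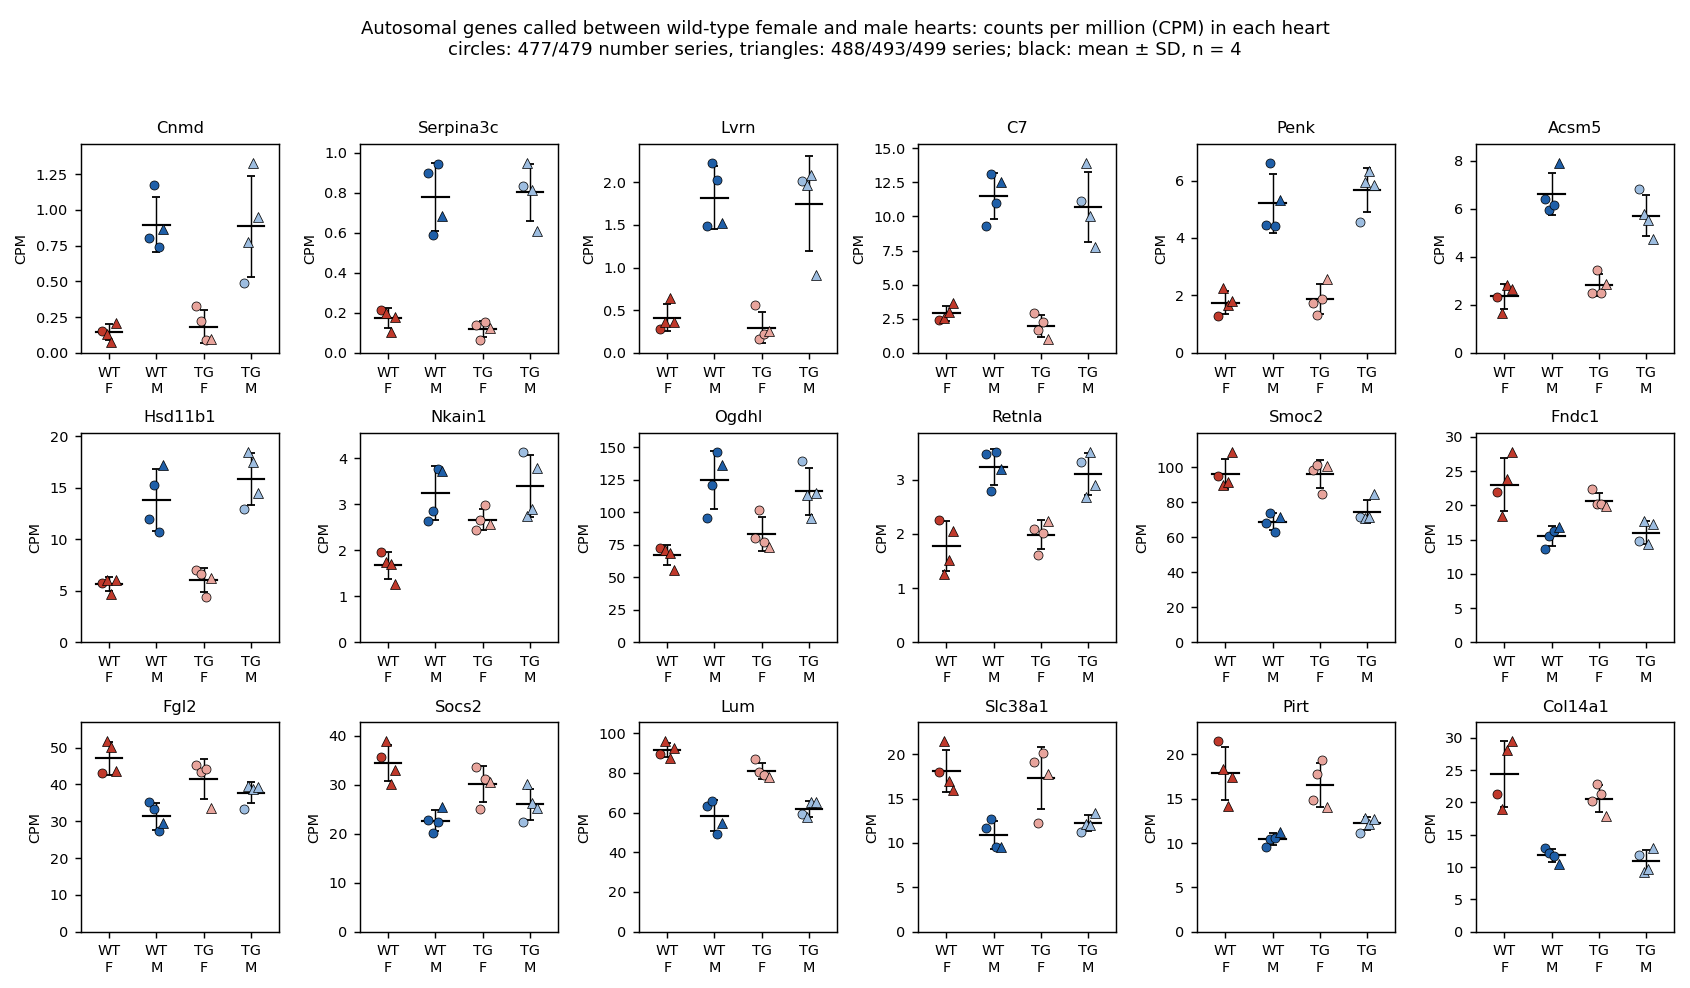
Each panel shows 1 called gene, with CPM on the y axis from 0 and the 4 groups of female (F) and male (M), WT and TG hearts on the x axis. Circles and triangles are hearts of the earlier and later number series, and black bars are the mean ± SD of 4 hearts. In all 18 panels the WT females and WT males do not overlap.

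Promoters are shown for the called genes that were also called in the TG hearts, since these are the sex differences found in both sets. Of the 8 such genes, Acsm5, C7, Hsd11b1, Serpina3c and Cnmd are in RefSeq's promoter table (GRCm38.p6), and Lvrn, Penk and Col14a1 had no entry. Each sequence runs 5′ to 3′ on the gene's strand, from 250 bases before to 50 bases after the start that RefSeq gives. Capitals mark AGGTCA, the half-site of oestrogen and many other nuclear receptors, and AGAACA, the half-site shared by androgen and glucocorticoid receptors, searched on both strands. The windows are chr7:119526015-119526314 (plus strand) for Acsm5, chr15:5063724-5064023 (minus) for C7, chr1:193242311-193242610 (minus) for Hsd11b1, chr12:104153823-104154122 (minus) for Serpina3c and chr14:79662134-79662433 (minus) for Cnmd.
Acsm5: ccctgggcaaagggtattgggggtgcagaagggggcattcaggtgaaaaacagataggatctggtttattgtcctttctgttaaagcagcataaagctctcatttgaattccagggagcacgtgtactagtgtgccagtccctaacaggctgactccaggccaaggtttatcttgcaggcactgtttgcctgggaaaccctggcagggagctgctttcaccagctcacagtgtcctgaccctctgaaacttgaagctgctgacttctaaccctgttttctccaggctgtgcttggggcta
C7: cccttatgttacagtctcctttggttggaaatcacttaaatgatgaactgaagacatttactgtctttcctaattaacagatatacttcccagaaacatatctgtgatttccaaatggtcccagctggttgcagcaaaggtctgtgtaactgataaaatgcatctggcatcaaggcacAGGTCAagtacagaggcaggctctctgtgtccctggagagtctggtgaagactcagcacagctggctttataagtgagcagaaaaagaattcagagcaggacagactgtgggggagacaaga
Hsd11b1: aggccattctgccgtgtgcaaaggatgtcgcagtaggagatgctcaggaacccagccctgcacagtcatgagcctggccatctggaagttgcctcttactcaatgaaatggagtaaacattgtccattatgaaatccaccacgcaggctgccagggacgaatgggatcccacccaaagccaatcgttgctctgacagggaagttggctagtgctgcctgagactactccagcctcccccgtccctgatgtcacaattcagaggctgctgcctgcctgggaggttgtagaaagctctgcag
Serpina3c: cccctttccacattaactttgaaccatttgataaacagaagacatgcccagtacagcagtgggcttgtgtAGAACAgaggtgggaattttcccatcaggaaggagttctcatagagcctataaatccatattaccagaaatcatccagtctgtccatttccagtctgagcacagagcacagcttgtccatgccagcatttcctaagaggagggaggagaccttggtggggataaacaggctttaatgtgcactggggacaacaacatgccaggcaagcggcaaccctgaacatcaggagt
Cnmd: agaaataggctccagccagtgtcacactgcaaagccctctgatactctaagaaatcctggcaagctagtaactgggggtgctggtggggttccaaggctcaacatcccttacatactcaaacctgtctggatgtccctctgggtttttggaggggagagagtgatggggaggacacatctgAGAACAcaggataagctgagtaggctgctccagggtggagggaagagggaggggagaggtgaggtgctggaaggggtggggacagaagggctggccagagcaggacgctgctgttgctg

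C7 held 1 AGGTCA that begins 72 bases before its start, Serpina3c 1 AGAACA at 180 bases before, and Cnmd 1 AGAACA at 69 bases before, while Acsm5 and Hsd11b1 held neither. The windows of Acsm5 and Hsd11b1 lie inside the genes as GENCODE vM21 places them. The gene starts given there, chr7:119519463 and chr1:193264075, were not searched. The 10 called genes searched, off chromosome 18 and with an entry, were these 5, Ogdhl, Fgl2, Nkain1, Fndc1 and Retnla. Among them AGGTCA was found in 4 promoters (40.0%), and in 16.3% of all 32851 promoters of this length. AGAACA was found in 2 of the 10 and in 19.0% of all. The other AGGTCA matches were 211 bases before the start in Fndc1, 50 before in Retnla, and 107 and 1 before in Ogdhl. Neither the paired oestrogen element (GGTCA and TGACC 3 bases apart) nor the paired androgen and glucocorticoid element (AGAACA and TGTTCT 3 bases apart) nor 2 direct AGGTCA copies 1 base apart were found in these 10 windows. They are rare in all promoters, at 0.07%, 0.00913% and 0.0396%.

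In the TG hearts, which entered the fit for its filter and spread but not the WT means, the same sex contrast called 11 autosomal genes (0.0757%), 2 higher and 9 lower in females. Of these 8 were among the 18, which is 44.4% of the WT calls and 72.7% of the TG calls: C7, Serpina3c, Hsd11b1, Penk, Lvrn, Col14a1, Acsm5 and Cnmd. All 18 had the same direction in TG hearts, 15 with an unadjusted p under 0.05, which 8.59% of autosomal genes reached there. Groups did not overlap in the same direction for 12, against 4.3% of autosomal genes in either direction. Without TG female 4, the heart that lacked Xist, 10 genes were called, and the count was 27 without TG male 4. The autosomal levels of TG female 4 lay outside the TG male range in the female direction for 17 of the 18. This was not counted over all autosomal genes, so the number has no background and does not settle the label of this heart.

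C7 stood at 2.92, 1.67, 2.27 and 1.04 CPM in TG females and at 11.1, 13.9, 9.996 and 7.78 CPM in TG males, with a log2 fold change of -2.41 ± 0.24. Hsd11b1 stood at 7.02, 6.59, 4.36 and 6.23 CPM in TG females and at 12.9, 18.4, 17.4 and 14.4 CPM in TG males, with a log2 fold change of -1.38 ± 0.17. The sexes did not overlap for either gene, as in WT. Fgl2 stood at 45.1, 43.4, 44.1 and 33.5 CPM in TG females and at 33.4, 39.6, 38.7 and 39.2 CPM in TG males, which overlapped, with a log2 fold change of 0.14 ± 0.10. The difference was smaller in TG than in WT for 13 of the 18. These genes were chosen by their WT difference, which alone favours a larger value in WT, so this count does not show weaker differences in TG. The test of WT against TG difference called no autosomal gene with edgeR (0%), with DESeq2 or with limma-voom, and 682 had an unadjusted p under 0.05 (4.7%), among them Fgl2, Socs2, Nkain1 and Lum of the called genes. The choice by WT difference bears on these called genes as well. Of the 802 genes with an unadjusted p under 0.05 in WT, 577 (71.9%) had the same direction in TG, against 52.4% of all autosomal genes.

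**Figure D3:**
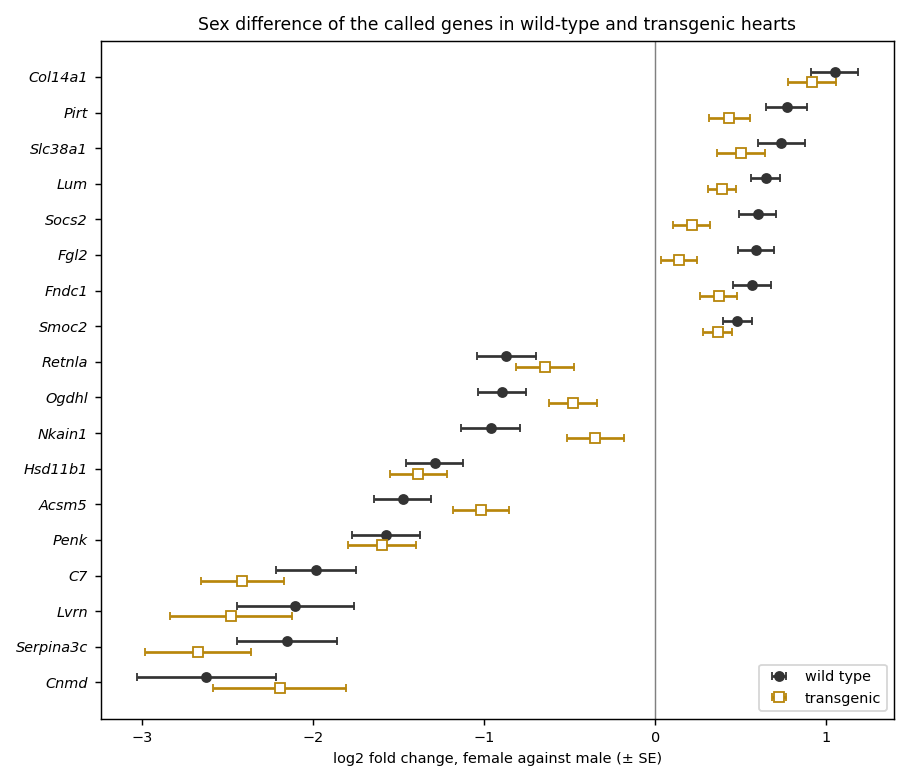
The x axis is the log2 fold change of female against male hearts with its SE for the 18 called genes, filled circles for WT and open squares for TG hearts. All pairs of points lie on the same side of 0, with Fgl2 at 0.59 in WT and 0.14 in TG and Penk at -1.57 and -1.60.

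Gene lists by role were read as counts and medians of the log2 fold change, female against male. Scaling by library size alone in place of TMM moved the median of all autosomal genes from -0.00894 to 0.0678, and with it the list medians. Counts of called list members are those of edgeR's main test unless another fit is named. The fit with the mitochondrial share as a term, which called 734 genes in all, also called more list members, 9 of 35 in complex I, 11 of 38 in complexes III to V, 7 of 31 in fatty acid oxidation, 5 of 31 in glycolysis and glycogen, 5 of 25 among regulators and 4 of 9 in MHC class II, all lower in females. Fatty acid oxidation genes, 31 tested, had a log2 fold change below 0 in 29, with a median of -0.18 against -0.00894 over all autosomal genes. None passed the FDR threshold in edgeR, 14 had an unadjusted p under 0.05 (all with a negative log2 fold change) and 8 had groups that did not overlap, against 5.52% and 3.08% of all autosomal genes. Slc25a20, the carrier that brings acylcarnitines into mitochondria, stood at 135, 132, 118 and 138 CPM in females and at 156, 164, 172 and 168 CPM in males, with a log2 fold change of -0.33 ± 0.08 and an adjusted p of 0.130. Its groups did not overlap. Hadh, the short-chain hydroxyacyl-CoA dehydrogenase, stood at 329 to 387 CPM in females and 401 to 482 in males (-0.31 ± 0.08, adjusted p = 0.255). Ech1 (-0.33 ± 0.09, adjusted p = 0.279) and Acaa2, the mitochondrial thiolase (-0.34 ± 0.09, adjusted p = 0.294), overlapped between the sexes, with WT male 1 the lowest male for both. Summed over the list the level was 11070 to 12680 CPM in females and 13640 to 14140 in males. In TG hearts 21 of 31 were below 0, with a median of -0.0972 and overlapping sums of 12000 to 12740 and 12490 to 15240 CPM. Other tools and settings passed some members: limma-voom called 4, a fit without WT male 1 called 3 and DESeq2 called 1, all lower in females.

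Fatty acid uptake and storage genes were below 0 in 24 of 27 (median -0.161), with no call, while DESeq2, the fit on WT libraries alone and the fit without the Myl7 libraries described below each called 1 lower. Acsl6, an acyl-CoA synthetase, stood at 6.88 to 8.09 CPM in females and 10.4 to 15.6 in males (-0.78 ± 0.20, adjusted p = 0.233), and Fabp3, the heart fatty acid binding protein, had a log2 fold change of -0.21 ± 0.07 (adjusted p = 0.563). In TG hearts this list was below 0 in 11 of 27, with a median of 0.0126. Peroxisomal and medium-chain acyl-CoA genes were below 0 in 17 of 18 (median -0.114), with Acsm5 the one call. Ephx2, the soluble epoxide hydrolase, had a log2 fold change of -0.26 ± 0.09 (adjusted p = 0.641), and Pex11a, a peroxisome division factor, -0.32 ± 0.11 (adjusted p = 0.641).

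Branched-chain amino acid breakdown genes were below 0 in 20 of 20 (median -0.0865) and 16 of 20 in TG hearts, with no call in either. Without WT male 1 they were below 0 in 14 of 20 with a median of -0.0176, and without WT female 3 the median was -0.0434. The mitochondrial term gave 11 of 20, a median of -0.00147 and 3 called lower. Ivd, the isovaleryl-CoA dehydrogenase, had a log2 fold change of -0.24 ± 0.07 (adjusted p = 0.480). Bckdha, a subunit of the branched-chain keto acid dehydrogenase, stood at 109, 111, 99.7 and 89.3 CPM in females and at 82.7, 160, 185 and 210 in males. WT male 1 was below all females while the other males were above them (-0.64 ± 0.24, adjusted p = 0.707). Citric acid cycle genes were below 0 in 18 of 20 (median -0.0862), but in 12 of 20 with library size alone (median -0.00982). The mitochondrial term also gave 12 of 20, with a median of -0.05 and 1 called lower. Pyruvate dehydrogenase genes were below 0 in 9 of 12 (median -0.0799, and -0.0333 without WT male 1). With library size alone they were below 0 in 6 of 12 (median -0.00199). In the latter Pdhx had a log2 fold change of -0.15 ± 0.06 (adjusted p = 0.802) and Pdk4, the kinase that shuts off pyruvate oxidation, ranged from 165 to 499.2 CPM in females and from 229 to 781 in males (adjusted p = 0.949).

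Respiratory chain genes had medians nearer 0. Autosomal complex I genes were below 0 in 19 of 35 (median -0.0127) and genes of complexes III to V in 21 of 38 (median -0.0102), without a call, and both medians turned positive with library size alone (0.0637 and 0.0645). Ndufa9 of complex I had a log2 fold change of -0.10 ± 0.07, and Cox7a2 of complex IV 0.19 ± 0.07 (adjusted p = 0.631). Glycolysis and glycogen genes were below 0 in 22 of 31 (median -0.0294, and 0.0428 with library size alone), with Gys1, the muscle glycogen synthase (-0.20 ± 0.09, adjusted p = 0.844). Ketone body genes were below 0 in 5 of 9 (median -0.052, and 0.0288 with library size alone), where the monocarboxylate transporter Slc16a7 had 0.39 ± 0.18 (adjusted p = 0.869). Mitochondrial redox genes were below 0 in 13 of 18 (median -0.0399, and 0.034 with library size alone). Among these Gsta3 had 0.73 ± 0.28 (adjusted p = 0.757) and Nnt, the proton-driven transhydrogenase, -0.31 ± 0.14 in WT and 0.49 ± 0.14 in TG (adjusted p = 0.844 and 0.291, and 0.899 for the difference between them).

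Regulators of mitochondria and lipid use were below 0 in 21 of 25 (median -0.129, and 0.0158 in TG hearts), with no call, while limma-voom called 1 lower. Rxra, a partner of the fatty acid receptors, had a log2 fold change of -0.27 ± 0.10 (adjusted p = 0.668), and Ppara, the fatty acid receptor itself, -0.17 ± 0.13 (adjusted p = 0.953). Steroid and thyroid hormone genes were split 13 to 13 (median 0.0126), with Hsd11b1 and the growth hormone target Socs2 the 2 calls. None of the autosomal steroid receptors passed the test. Esr1, the oestrogen receptor, had 0.03 ± 0.24, Nr3c1, the glucocorticoid receptor, -0.02 ± 0.11, and Nr3c2, the mineralocorticoid receptor, -0.09 ± 0.15 (adjusted p = 0.997, 0.993 and 0.982). The sign of each of these 3 changed in some settings. Esr1 was low, with means of 0.717 CPM in WT females and 0.695 in WT males, and had 0.77 ± 0.24 in TG hearts (adjusted p = 0.388). Dio2, which activates thyroid hormone, had 0.69 ± 0.33 (adjusted p = 0.877).

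In the stroma, fibrillar and fibril-associated collagens were above 0 in 11 of 19 (median 0.0641), with Col14a1 the one call, and the median was -0.0066 without WT male 1 and -0.079 without WT female 3. Col6a6, a chain of microfibrillar collagen, had means of 9.731 CPM in females and 13.25 in males without overlap (-0.44 ± 0.12, adjusted p = 0.294), so the list held members of opposite direction. Col8a1, a short-chain collagen, had 0.46 ± 0.15 (adjusted p = 0.512). Small leucine-rich proteoglycans were above 0 in 6 of 9 (median 0.117, and -0.0231 without WT female 2), with Lum called and Podn at 0.35 ± 0.25. Matricellular genes were above 0 in 15 of 22 (median 0.134, and 0.0453 without WT female 4), with Smoc2 called. Postn, periostin, stood at 42.2, 54.4, 58.0 and 58.9 CPM in females and at 36.7, 36.7, 35.6 and 36.7 in males. The groups did not overlap (0.55 ± 0.13, adjusted p = 0.130), whereas the TG log2 fold change was -0.11 ± 0.13. Wisp1, a CCN family protein, had 0.76 ± 0.27 (adjusted p = 0.645).

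Basement membrane genes were above 0 in 8 of 20 (median -0.0431, and 0.0313 with library size alone), with Nid1 at -0.18 ± 0.10, and elastic fibre genes in 10 of 22 (median -0.0461, and 0.025 with library size alone), neither with a call. Other fits called elastic fibre members, DESeq2 1 higher and 1 lower, limma-voom 1 lower and the mitochondrial term 1 higher and 4 lower, and the mitochondrial term called 2 basement membrane genes lower. In the elastic list Efemp1, fibulin-3, stood at 5.23, 5.05, 4.92 and 7.85 CPM in females and at 7.62, 9.99, 11.7 and 15.5 in males (-0.96 ± 0.22, adjusted p = 0.130). Mfap4, a microfibril-associated protein, stood at 12.4 to 15.7 CPM in females and 5.95 to 9.37 in males (0.72 ± 0.19, adjusted p = 0.236), and Lox, the collagen and elastin crosslinking enzyme, had -0.75 ± 0.22 (adjusted p = 0.428). Matrix proteases were above 0 in 16 of 31 (median 0.00416, and -0.127 without WT male 1), with the aggrecanase Adamts5 at -0.37 ± 0.09 (adjusted p = 0.206) and the collagenase Ctsk at 0.42 ± 0.13 (adjusted p = 0.428). Genes of transforming growth factor beta and WNT signalling were above 0 in 19 of 29 (median 0.0945), but in 11 of 29 without WT female 2 (median -0.0378). The list's one call, Penk, is an opioid precursor and not a part of either pathway. Fst, the activin antagonist, had -1.19 ± 0.43 (adjusted p = 0.641) and Frzb, a secreted WNT antagonist, 0.51 ± 0.19 (adjusted p = 0.698).

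Fibroblast markers summed to 1074 to 1135 CPM in WT females and 830 to 1263 in WT males, and 3 of 10 were above 0, with Smoc2 called, Dpep1 just outside the threshold and Scara5 at -0.31. In bulk tissue fewer cells of a type and less RNA per cell cannot be told apart. The part of cell numbers in the stromal differences was not tested.

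Among immune genes, MHC class II genes were below 0 in 8 of 9, with a median of -0.529 and no call, and 5 had an unadjusted p under 0.05, against 5.52% of all autosomal genes. Ciita, the transactivator of the class, stood at 1.02, 0.958, 1.19 and 0.812 CPM in females and at 1.27, 1.79, 1.54 and 1.78 in males without overlap (-0.68 ± 0.24, adjusted p = 0.638). H2-Aa stood at 33.6, 24.7, 31.1 and 31.2 CPM in females and at 35.0, 42.4, 43.0 and 53.4 in males, again without overlap (-0.53 ± 0.20, adjusted p = 0.691). H2-Ab1 had -0.72 ± 0.25 (adjusted p = 0.647) and Cd74, the invariant chain, -0.59 ± 0.21 (adjusted p = 0.656). In TG hearts 7 of 9 were below 0, with a median of -0.424. Reads of the H2 genes can be shared among similar members by RSEM. MHC class I genes were above 0 in 13 of 17 (median 0.0428, but -0.0472 without WT male 1 and -0.0146 without WT female 1), with B2m at 0.13 ± 0.15.

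Interferon response genes were above 0 in 39 of 43 (median 0.241), without a call. The median was 0.126 without WT female 3 and 0.12 with limma-voom. An unadjusted p under 0.05 was reached by 10 in the positive and 1 in the negative direction, and 6 had groups that did not overlap, against 5.52% and 3.08% of all autosomal genes. Ifih1, a sensor of double-stranded RNA, stood at 12.1, 11.2, 11.9 and 11.3 CPM in females and at 10.1, 10.6, 8.50 and 8.65 in males (0.30 ± 0.09, adjusted p = 0.477). Oasl2 stood at 11.96 to 17.9 CPM in females and 10.1 to 11.0 in males (0.48 ± 0.15, adjusted p = 0.505). Ifit2 had 0.38 ± 0.13 and Dhx58, an RNA helicase of the same sensing pathway, 0.69 ± 0.24 (adjusted p = 0.603 for both). In TG hearts 25 of 43 were above 0, with a median of 0.0466.

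Complement genes were split 13 to 12 (median 0.00261), with C7 the one call, while in TG hearts 21 of 25 were below 0. In WT the members ran from -1.98 to 2.58, so the largest difference was towards females. An unadjusted p under 0.05 was reached by 1 higher and 2 lower in females, against 5.52% of all autosomal genes. C3, the central component, stood at 129, 108, 127 and 127 CPM in females and at 117, 174, 161 and 224 in males (-0.46 ± 0.17, adjusted p = 0.707), and C4b had -0.44 ± 0.27. Chemokines and cytokines were above 0 in 16 of 37 (median -0.0367, and 0.0438 with library size alone) without a call, while DESeq2 and the mitochondrial term each called 2 lower and limma-voom called 1 lower. Ccl11, the eosinophil attractant eotaxin, stood at 1.15, 0.826, 0.725 and 0.932 CPM in females and at 1.58, 2.196, 2.23 and 2.89 in males. The groups did not overlap in WT (-1.30 ± 0.30, adjusted p = 0.130) and in TG hearts (-1.53 ± 0.30, adjusted p = 0.0576). Cxcl14 had -1.06 ± 0.26 in WT and -1.04 ± 0.26 in TG (adjusted p = 0.215 and 0.219), without overlap in either set. Macrophage markers, 12 of 16 below 0 (median -0.0878), summed to 302.5 to 414 CPM in WT females and 345 to 410 in WT males, with Csf1r, the macrophage growth factor receptor, at -0.27 and Ccr2, the receptor of recruited monocytes, at -0.74. Their part in the immune differences was not tested.

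**Figure D4:**
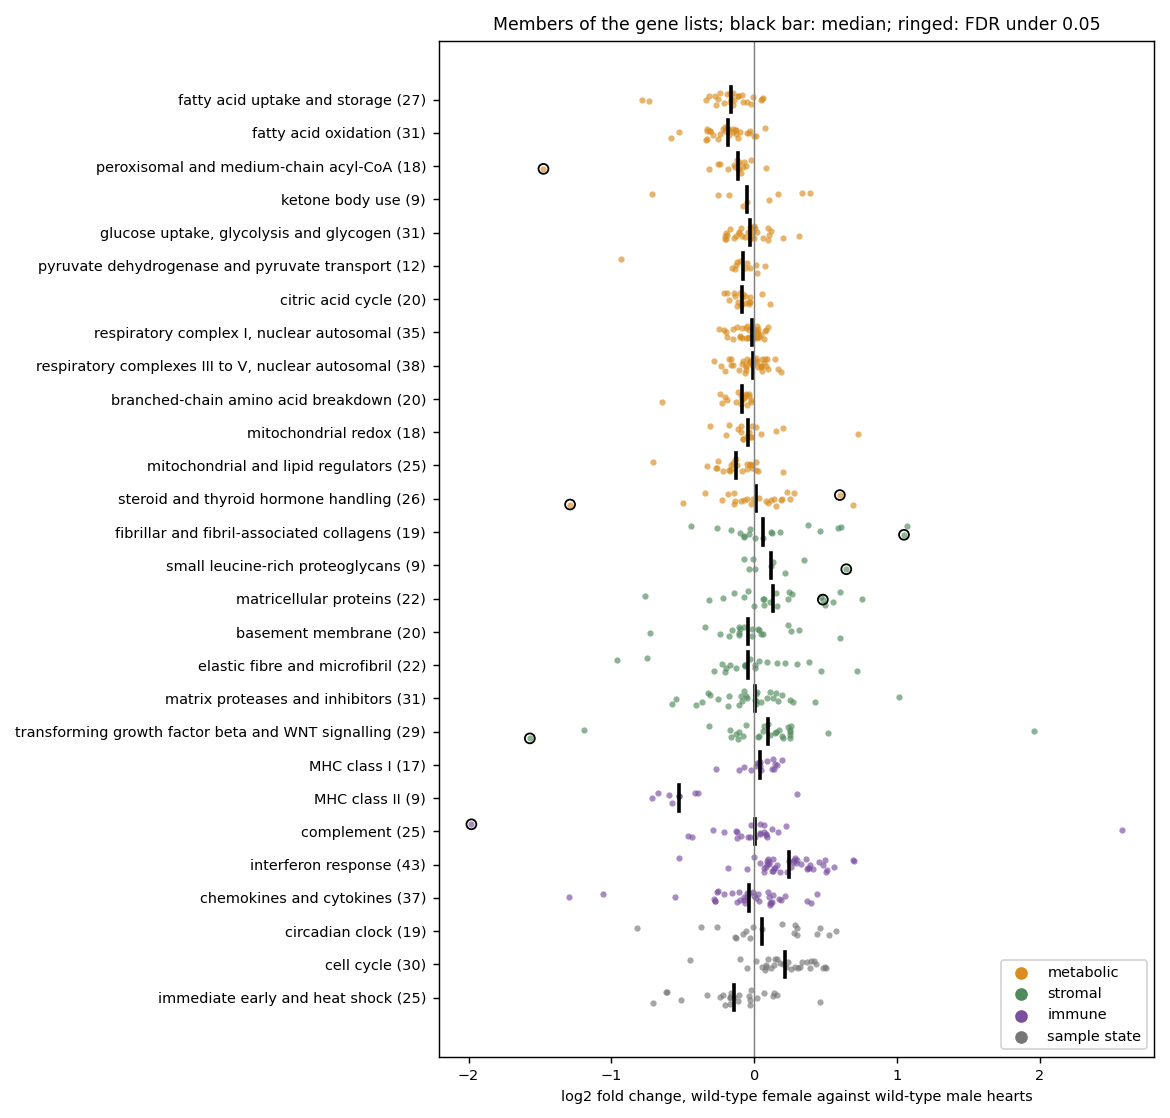
Each point is 1 tested member of a gene list (orange metabolic, green stromal, purple immune, grey sample state), with its log2 fold change of WT female against WT male hearts on the x axis and the number tested after each list's name. Black bars are medians and rings mark called genes. The medians of fatty acid oxidation (-0.18) and MHC class II (-0.529) lie to the left of 0, and that of interferon response (0.241) to the right.

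Other lists describe the state of the sample. Cell cycle genes were above 0 in 27 of 30 in WT (median 0.213) and in 13 of 30 in TG (median -0.0249), without a call, with the replication factor Mcm3 at 0.39 ± 0.12 (adjusted p = 0.480). Without WT female 3 the list was above 0 in 12 of 30 in WT with a median of -0.04, and in the earlier series alone the median was -0.179. Immediate early and heat shock genes were below 0 in 19 of 25 (median -0.141), but in 11 of 25 without WT male 4 (median 0.0224), and clock genes were split 10 to 9. Nr1d2, a repressor of the clock, had 0.30 ± 0.14 (adjusted p = 0.877). Dbp, a clock output gene singled out after its values were seen, stood at 59.5, 60.6, 53.1 and 55.1 CPM in females and at 23.4, 39.9, 30.9 and 73.4 in males. The 3 earlier-series males were below all females and the later-series male above them, and Arntl ran the other way, at 0.812 CPM in WT male 4 and 6.16 to 11.2 in the other males.

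Atrial markers were above 0 in 6 of 6 tested in WT (median 3.62), without a call, and in 1 of 6 in TG (median -0.438). Their sum was 85.8 to 178 CPM in WT females and 36.2 to 92.95 in WT males. Myl7, the atrial myosin light chain, also singled out after its values were seen, stood at 9.60 and 21.6 CPM in WT females 1 and 2 and at most 0.609 in the other 6 WT hearts. Without the 4 libraries in which Myl7 exceeded 5 CPM (2 WT females and no WT male among them) 27 genes were called, 10 of them from the 18. The 8 not called there were Cnmd, Fgl2, Nkain1, Ogdhl, Pirt, Retnla, Slc38a1 and Socs2. All 18 kept their direction, which the lack of overlap between the WT groups all but fixes. The WT females left in this fit, 3 and 4, were each the only library of their number block. Block and sex therefore cannot be told apart in it. Of 10 adipocyte markers 2 were tested, Cfd (2.58 ± 0.90) and Car3 (2.01 ± 0.72), and the list summed to 0.776 to 3.34 CPM in WT females and 0.381 to 0.930 in WT males. Ventricular markers were split 5 to 4 (median 0.00571). Endothelial markers were above 0 in 3 of 11 (median -0.0261) and smooth muscle and pericyte markers in 1 of 9 (median -0.123), without a call. No lung epithelium or thymus marker passed the filter on low counts. The part of any of these in the called differences was not tested.

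**Figure D5:**
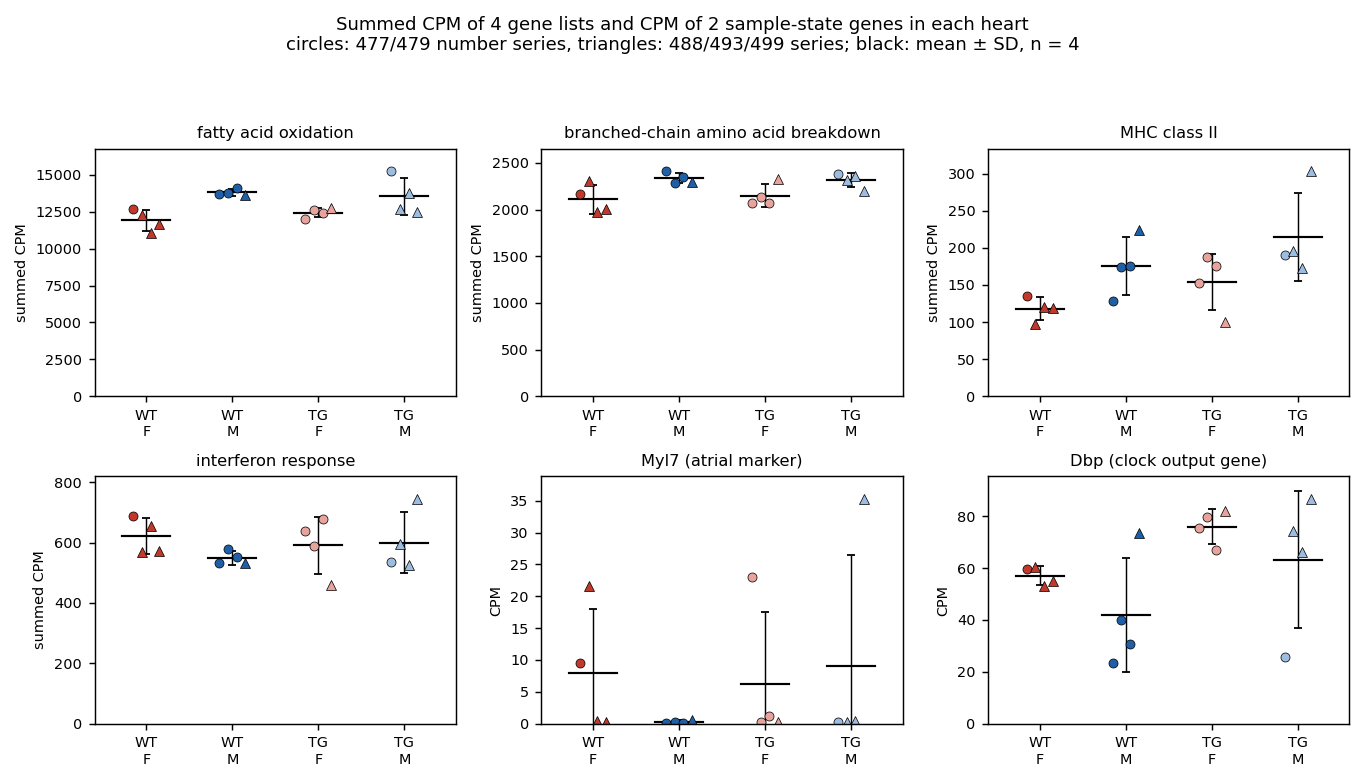
Summed CPM of 4 lists and CPM of Myl7 and Dbp are plotted on y axes from 0 for each heart in the 4 groups, with circles and triangles for the earlier and later number series and black bars for the mean ± SD of 4 hearts. The fatty acid oxidation sums of WT females (11070 to 12680) lie below those of WT males (13640 to 14140), and Myl7 is above 5 CPM in 2 WT females, 1 TG female and 1 TG male.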

How the data were processed

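The authors deposited estimated counts per gene from RSEM, as whole numbers, for 16 heart libraries. Per the submitters' processing notes, base calls were converted with bcl2fastq 2.20.0.422, reads were handled with STAR and RSEM against mm10, and R 3.6.2 was used. The strand setting and annotation release were not given in the sources used here. Per the labels' protocols, RNA came from frozen tissue with a DNA digest, and libraries were stranded mRNA libraries. Of 51912 genes, 51719 matched GENCODE vM21 (GRCm38), and 47415 were autosomal.

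Counts were tested with edgeR 4.0.16 (R 4.3.3; quasi-likelihood, robust, TMM scaling, filterByExpr) over all 16 libraries with 1 mean per group of sex and genotype, so that the groups shared 1 estimate of the spread. Benjamini-Hochberg adjustment ran over all 15060 tested genes at an FDR of 0.05. CPM used the effective library size that TMM gives, and CPM per kilobase divides by annotated exon length. The SE is the log2 fold change divided by the square root of F. Alternatives used DESeq2 1.42.0, limma 3.58.1, other scalings, filters, terms and left-out libraries. Scripts were tested on simulated data. No library pair agreed within sampling noise (lowest chi-square per degree of freedom 7.99).

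Named were all called genes, up to 4 members of smallest p of each list, and Esr1, Nr3c1, Nr3c2, Ppara and Nnt. The genes, lists and tests were chosen with earlier results of these data known. Results for some list members are not reported here.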

Additional observations from a re-analysis of the deposited data

Results flagged for a closer look

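Within the 4 WT hearts of a sex, 14 of 160 sets of values had 1 heart far from the other 3 (Dixon's gap over range above its 95% critical value), where chance alone flags about 1 in 20. WT male 1 had a mitochondrial mRNA share of 29.8% (others 25.9% to 26.5%), and its 20 most abundant genes took 47.8% of counts (others 43.7% to 43.9%).

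Among metabolic genes, Ppara was at 37.2 CPM in WT female 2 (others 27.4 to 28.5). Nnt was at 73.0 CPM in WT female 4 (others 89.7 to 92.5), and Cox7a2 at 306 CPM in the same heart (others 264 to 270). Ephx2 was at 176 CPM in WT female 3 (others 199.5 to 203).

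Among stromal genes, WT female 1 had 21.9 CPM of Col8a1 (others 30.9 to 32.3) and 8.58 CPM of Podn (others 13.2 to 13.7). Efemp1 was at 7.85 CPM in WT female 4 (others 4.92 to 5.23) and Mfap4 at 15.7 CPM in WT female 3 (others 12.4 to 12.9). In males, Postn was at 35.6 CPM in WT male 3 (others 36.7), a gap that is wide only against the narrow range of the others, and Adamts5 at 22.6 CPM in WT male 4 (others 28.8 to 29.98).

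Among immune genes, C3 was at 108.0 CPM in WT female 2 (others 127 to 129) and Dhx58 at 1.92 CPM in WT male 2 (others 1.07 to 1.11). None of the 18 called genes had such a heart in either sex.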

How the results depend on the processing

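All 18 called genes kept their direction in every other setting in which they were tested, and 69 of 77 named genes did. Those settings numbered 21 for Cnmd and Serpina3c and 22 for the other called genes. The WT groups did not overlap for any of the 18. That all but fixes their direction when libraries are left out, so those settings are not a separate test of it. The WT count of 18 was 8 at a fold of at least 2, 56 with DESeq2, 53 with limma-voom, 734 with a mitochondrial term, 1 in the earlier and 3 in the later series alone, and 11 to 33 leaving out 1 library. Within a series the lone heart of a sex took its spread from the other groups. The TG count of 11 was 20 at an FDR of 0.10, 68 with DESeq2, 61 with limma-voom, 93 with a mitochondrial term, 20 without the libraries with Myl7 over 5 CPM, and 8 to 27 leaving out 1 library. With library size alone the TG split was 10 higher and 6 lower. The difference between WT and TG contrasts gave 1 call without the Myl7 libraries and 0 in every other setting run. The cause of these changes was not tested.

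Of 28 list medians 10 kept their sign in all settings: those of fatty acid uptake, fatty acid oxidation, peroxisomal, pyruvate dehydrogenase, citric acid cycle, branched-chain, regulator, matricellular, MHC class II and interferon genes. Leaving out 1 WT library also turned the medians of ketone body (0.0572 without WT male 1), glycolysis (0.0042 without WT female 1), complex I (0.00602 without WT female 3), complexes III to V (0.0291 without WT male 4), basement membrane (0.0214 without WT male 3), elastic fibre (0.0234 without WT male 2) and chemokine genes (0.0148 without WT female 2). Uncalled genes that changed sign were Nr3c1 (0.05239 with library size alone, 0.05547 with limma-voom, 0.06291 with the mitochondrial term, 0.0281 in the earlier series, 0.04691 without WT male 1, and -0.1017 to 0.05971 over the fits without 1 WT library), Esr1 (-0.3094 without the Myl7 libraries, -0.2707 in the later series, -0.01773 without WT female 2, and -0.1389 to 0.1516 without 1 WT library) and Nr3c2 (0.004603 in the earlier series, and -0.1935 to 0.06001 without 1 WT library). In the later series alone Nid1 was 0.03728, Pdk4 0.1611, Fst 0.0627, Ppara 0.2536 and Podn -0.08129. No paired analysis was possible because replicate numbers were given in accession order and pair no hearts. Low counts limit Cnmd, Serpina3c and Lvrn, with 19, 23 and 57 counts over the 4 WT females.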
